A study of Mus musculus with 12 samples.

Results

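The respiratory chain of the inner mitochondrial membrane is described here through the genes of its subunits in mouse splenic B cells. The genes were chosen by symbol among the protein-coding genes of the GENCODE annotation, release M21. They are the mitochondrially encoded protein genes (symbols beginning with mt-), the nuclear Ndufa, Ndufb, Ndufc, Ndufs and Ndufv genes without the Ndufaf assembly factors, the Sdha to Sdhd genes, Cyc1, the Uqcr genes, the Cox4 to Cox8 genes and the Atp5 genes. The rule found 100 of the 55487 genes in the table, 87 of them in the nucleus and 13 in the mitochondrial genome. Of these, 90 had a mean of at least 1 FPKM (fragments scaled by transcript length and library size) over the 12 libraries and were tested, 79 nuclear and 11 mitochondrial.

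B cells, naive by the labels, had been purified from spleens of mice of the wild type (WT) or without Fcmr (KO), which encodes a receptor for the constant part of IgM. Strain and age of the mice are not given in the labels, nor is the KO allele described. All 4 groups, WT at 1 h, KO at 1 h, WT at 6 h and KO at 6 h, had been cultured with 10 µg/mL of F(ab')2 anti-IgM, which binds and clusters the antigen receptor, and no group was left without it, so a difference between the times cannot be told apart from time in culture. Each group held 3 libraries of oligo(dT)-purified RNA, called biological replicates without naming the animals, and p-values measure the spread between those libraries. The libraries held 19260751 to 24058818 fragments, at which 3 fragments on a transcript of 1 kb are worth 0.125 to 0.156 FPKM, the floor set by counting error.

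Fcmr was measured at 373.1 and 383.0 FPKM on average in the WT libraries of 1 h and 6 h and at 49.3 and 44.1 in the KO libraries. All 8 B cell markers examined were present, and their summed level was 2258 to 2588 FPKM in the 6 libraries of 1 h and 986.5 to 1052 in the 6 of 6 h. The 8 neutrophil markers summed to 55.6 to 843.0 FPKM in WT and 25.3 to 69.8 in KO at 1 h, and to 16 to 380.0 and 15.4 to 42 at 6 h. The 8 macrophage markers summed to 153.3 to 188.9 FPKM in WT and 97.9 to 111.6 in KO at 1 h, and to 27.2 to 31.7 and 22.8 to 27 at 6 h. The 8 erythroid markers summed to 537.3 to 2043 FPKM in WT and 509.1 to 1358 in KO at 1 h, and to 309.8 to 722.8 and 307.1 to 560.1 at 6 h. The 4 natural killer cell markers summed to 45.1 to 83.6 FPKM in the 6 libraries of 1 h and 15.2 to 26.5 in the 6 of 6 h, the 4 plasma cell markers to 610.3 to 1391 and 370.4 to 820.8, and the 6 T cell markers to 38.5 to 49.9 and 41 to 56.3. No marker of these lists was at 0 in every library. Their part in the results below was not tested, and in bulk RNA fewer cells of a type cannot be told apart from less RNA per cell.

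The respiratory chain passes electrons from NADH (complex I) or succinate (complex II) through ubiquinone, complex III and cytochrome c to oxygen at complex IV, and the proton gradient made on the way drives ATP synthesis by complex V. Complexes I, III, IV and V join subunits made from nuclear genes with subunits made from the mitochondrial genome, which lies in many copies in each mitochondrion and is transcribed there as long precursors. Complex II is made from nuclear genes alone. Resting B cells are small, and stimulation through the antigen receptor is known to enlarge them and to raise their oxygen use.

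From 1 h to 6 h most nuclear subunit genes rose in both genotypes. The 6 abundant mitochondrially encoded genes had negative changes in both, -0.38 to -0.19 in WT and -0.25 to -0.12 in KO. At a limma adjusted p under 0.05, 5 of the 6 were called lower in WT and 2 in KO. In a fit with the replicate number as a block these were 3 and 1. In WT, 69 of the 90 tested members were higher at 6 h and 8 were lower (limma, Benjamini-Hochberg adjusted p under 0.05). Of all 11841 genes tested 49.5% were higher and 29.2% lower in that comparison. In KO, 69 members were higher and 5 lower, against 50.6% and 27.9% of all genes. The libraries of 1 h and 6 h did not overlap for 78 members (86.7%) in WT and 79 (87.8%) in KO, against 79% and 82.5% of all genes. The median change of the members was 0.67 in WT and 0.62 in KO on the log2(FPKM + 1) scale, and that of all genes 0.21 and 0.22. The 79 nuclear members had medians of 0.71 and 0.68, with 68 higher and 3 lower in WT and 69 higher and 3 lower in KO. All but 5 of the nuclear members had a positive change in each genotype.

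**Figure D1:**
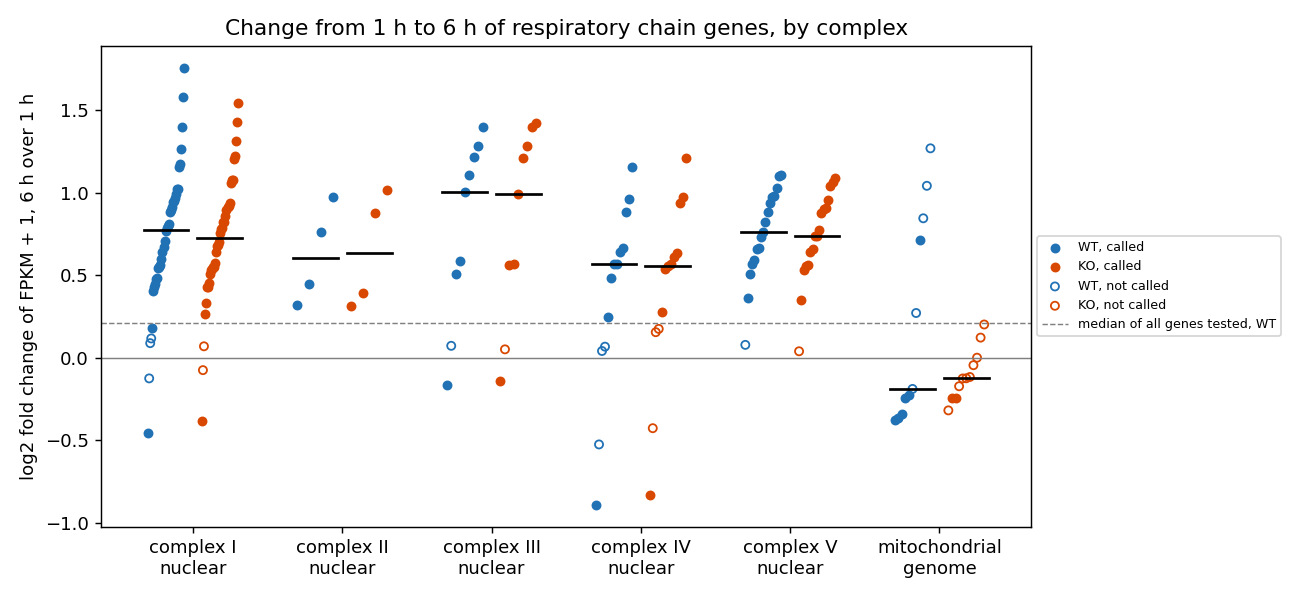
Log2 fold change of FPKM + 1 from 1 h to 6 h for each tested member (points) in WT and KO, grouped by complex for the nuclear genes and by genome for the mitochondrial ones; filled points were called at a limma adjusted p under 0.05 and black bars are group medians. The nuclear groups have medians between 0.55 and 1.00, above the dashed line at the median of all genes tested in WT (0.21), and the mitochondrial group lies below it at -0.19 in WT and -0.13 in KO.

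The 2 genotypes were measured in separate libraries, and their changes ran close together. Of the 77 members called in WT and the 74 called in KO, 73 were called in both in the same direction, 94.8% of the WT and 98.6% of the KO calls. Of all genes 78.7% were called in WT and 78.5% in KO, and how many of those calls were shared was not computed. Across the 79 nuclear genes the change in WT and the change in KO had a Pearson correlation of 0.98, a description over genes that share libraries and are not independent replicates. This correlation was not computed over all genes, so closeness of the genotypes may not be particular to the members. The largest gap between the genotypes among these genes was 0.33, for Ndufa12. Genes with a lower level at 1 h rose more, with a Spearman correlation of -0.39 between the level at 1 h and the change in WT over the same 79 genes, a description in which the level at 1 h enters both measures.

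The genes at the ends of this range are shown first with the sequence before their start, because they moved apart in these cells while their products sit in the same chain. Ndufb6 and Ndufa12, accessory subunits of complex I, had the largest rises in WT, and Cox7a2l and Ndufb11 the largest falls among nuclear members called. The 250 bases before the annotated start (RefSeq, GRCm38.p6) are given 5′ to 3′ on the gene's strand. They cover chr4:40279422-40279671 on the minus strand for Ndufb6, chr10:94198785-94199034 on the plus strand for Ndufa12, chr17:83514334-83514583 on the minus strand for Cox7a2l and chrX:20617620-20617869 on the minus strand for Ndufb11. Capitals mark matches on either strand to TGCGCA (the core of the NRF1 motif), CCGGAAG (an ETS motif of the kind bound by GABP), AAGATGGC (YY1), CCAAT (the CCAAT box) and CACGTG (the E-box). No match in these windows overlapped another.
Ndufb6: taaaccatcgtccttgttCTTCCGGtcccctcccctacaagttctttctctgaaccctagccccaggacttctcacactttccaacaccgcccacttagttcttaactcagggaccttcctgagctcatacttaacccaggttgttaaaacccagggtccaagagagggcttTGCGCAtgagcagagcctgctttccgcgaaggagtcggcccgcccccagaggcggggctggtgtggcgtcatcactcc
Ndufa12: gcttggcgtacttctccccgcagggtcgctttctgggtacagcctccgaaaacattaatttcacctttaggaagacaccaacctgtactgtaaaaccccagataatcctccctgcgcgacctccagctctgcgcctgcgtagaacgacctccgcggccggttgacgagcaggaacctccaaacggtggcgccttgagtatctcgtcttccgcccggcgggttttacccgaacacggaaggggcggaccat
Cox7a2l: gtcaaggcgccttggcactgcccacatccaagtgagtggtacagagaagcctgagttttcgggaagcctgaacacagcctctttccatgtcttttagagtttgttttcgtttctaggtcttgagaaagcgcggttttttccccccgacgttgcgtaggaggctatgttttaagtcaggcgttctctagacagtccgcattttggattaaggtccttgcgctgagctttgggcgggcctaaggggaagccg
Ndufb11: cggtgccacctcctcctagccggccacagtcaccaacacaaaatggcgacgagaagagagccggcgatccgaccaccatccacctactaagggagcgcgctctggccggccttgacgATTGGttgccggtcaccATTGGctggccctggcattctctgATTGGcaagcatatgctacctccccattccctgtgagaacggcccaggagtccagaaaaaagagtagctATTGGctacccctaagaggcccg
The Ndufb6 window held the ETS motif on the opposite strand beginning at -232 and the NRF1 core at -78, counted from the start of transcription. The Ndufb11 window held the CCAAT box on the opposite strand at -133, -116, -92 and -23. None of the 5 motifs occurred in the windows of Ndufa12 and Cox7a2l. In the GENCODE annotation Ndufa12 begins at chr10:94198720 and Cox7a2l at chr17:83517330. Both windows, placed by the RefSeq start, thus lie within the gene as GENCODE annotates it, and the sequence before the GENCODE start was not examined here.

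Promoter windows were at hand for 67 of the 86 nuclear symbols. The NRF1 core occurred in 13 of the 67 (19.4%), against 7.4% of the 27025 genes with a window. The ETS motif occurred in 12 (17.9%), against 7.8% of all. The CCAAT box was in 29 members (43.3%, all genes 37.5%), the E-box in 5 (7.5%, all genes 6.9%) and the YY1 motif in 1 (1.5%, all genes 1.8%). Among the 53 members with a window that were higher at 6 h in WT, 11 held the NRF1 core and 9 the ETS motif, against 13 and 12 of all 67. The 27025 genes include many below the level filter, which 11841 genes passed. The members are mostly expressed genes, so the 2 sets are unlike and no enrichment was tested. These matches describe letters in the windows and no binding was measured.

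Complex I, the NADH dehydrogenase, had 36 tested nuclear genes, of which 32 were higher and 1 lower at 6 h in WT and 33 and 1 in KO. Their median change was 0.78 in WT and 0.73 in KO. Ndufb6 stood at 22, 24.7 and 22.6 FPKM in the WT libraries of 1 h and 23.1, 22.7 and 23.4 in KO, and at 68.8, 77.4 and 67.1 in WT and 69.8, 71.4 and 65.8 in KO at 6 h. Every library of 6 h lay above every library of 1 h, and WT and KO overlapped at both times. The change was 1.58 ± 0.06 (SE, limma adjusted p = 1.94e-09) in WT and 1.54 (adjusted p = 2.51e-09) in KO. On the linear scale the mean of WT was 3.08 times as high at 6 h as at 1 h. Over 39.0% of its length Ndufb6 overlaps Smim27 on the other strand, and whether the counting used strand is not given.

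Ndufa12 is an accessory subunit of the matrix arm. Its level was 13.8, 16.5 and 12.3 FPKM in WT and 14.5, 14.5 and 15.3 in KO at 1 h, and 49, 49.8 and 51.4 in WT and 37.9, 44.7 and 41.8 in KO at 6 h. Again the times did not overlap, and at 6 h the 3 KO libraries lay below the 3 WT libraries. The change over time was 1.76 ± 0.09 in WT and 1.43 ± 0.09 in KO (limma adjusted p = 1.32e-08 and 6.7e-08). A stretch of 29.1% of its length is shared with Gm15920 at an identity of at least 99%, so its counts are uncertain to that extent.

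The 7 nuclear core subunits of complex I, which carry the flavin and the iron-sulfur clusters or the ubiquinone site, were all higher at 6 h in both genotypes, with a median change of 0.81 in WT and 0.79 in KO. Ndufv1, the subunit that binds NADH and the flavin, rose from 26.5, 26.2 and 24.9 FPKM to 48.4, 50.7 and 46.9 in WT and from 26.3, 23.7 and 26 to 49.1, 47.3 and 47.3 in KO. The groups of 1 h and 6 h did not overlap, and the spread within each group was small beside the step between them. The log2 change was 0.89 ± 0.05 in WT (limma adjusted p = 2.27e-08). Ndufs8 changed by 1.02, Ndufs3 by 0.78 and Ndufs1 by 0.55, the lowest of the 7.

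Of the 29 other nuclear subunits tested, 25 were higher and 1 lower in WT. Ndufab1, which is also the mitochondrial acyl carrier protein, changed by 1.17 ± 0.06 in WT and 1.08 in KO. Ndufa5 and Ndufc2, accessory subunits, changed by 1.39 and 1.16 in WT and by 1.31 and 1.22 in KO. The adjusted p of these genes (limma) lay between 1.64e-08 and 4.5e-08 in WT.

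Ndufb11, an X-linked accessory subunit of the membrane arm, went the other way. It stood at 52.8, 52.8 and 49.9 FPKM in WT and 49.5, 49.4 and 51.4 in KO at 1 h, and at 38.5, 39.5 and 34.9 and 39.3, 37.6 and 37.6 at 6 h. All libraries of 6 h were below all of 1 h. Its change was -0.45 ± 0.05 in WT and -0.38 in KO (limma adjusted p = 5.2e-06 and 2.15e-05). Over 12.9% of its length it overlaps Rbm10 on the other strand, and whether the counting used strand is not given in the sources used here. Ndufb10 (0.09 in WT), Ndufb2 (-0.13) and Ndufv3 (0.12) did not pass in WT, and Ndufv3 passed in KO (0.26, limma adjusted p = 0.00208). The value of Ndufb2, below 2.1 FPKM in every library, was made with a transcript of 4371 bases, and its level per length depends on that choice.

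**Figure D2:**
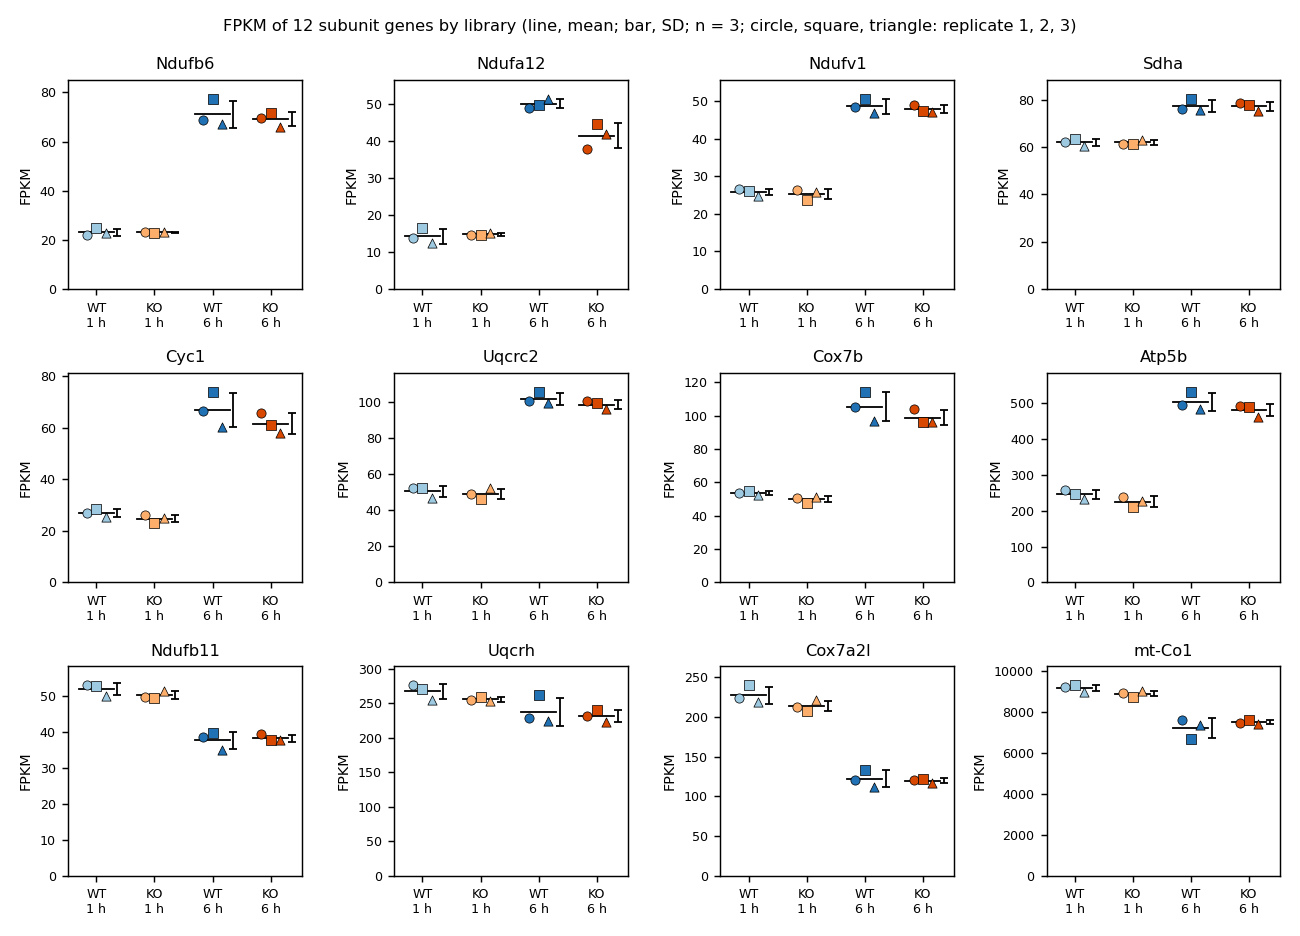
FPKM of 12 subunit genes in each library (symbols by replicate number), with the group mean (line) and SD (bar) of 3 libraries, by genotype and time. Ndufb6, Ndufa12, Ndufv1, Sdha, Cyc1, Uqcrc2, Cox7b and Atp5b were higher in every library of 6 h, and Ndufb11, Cox7a2l and mt-Co1 lower in every library of 6 h; Uqcrh overlapped between the times.

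The 4 genes of complex II, succinate dehydrogenase, were all higher at 6 h in both genotypes, with medians of 0.60 in WT and 0.63 in KO. Sdha, the flavoprotein that oxidises succinate, had 62, 63.5 and 60.4 FPKM in WT and 61.4, 61.5 and 63.2 in KO at 1 h, and 76.3, 80.5 and 75.8 and 78.6, 78 and 75.1 at 6 h. The times did not overlap, although the step was small, 0.32 ± 0.04 in WT (limma adjusted p = 1.07e-05). Sdhb, the iron-sulfur subunit, changed by 0.44 in WT and 0.39 in KO. The membrane anchors moved further, Sdhc by 0.76 and 0.88 and Sdhd by 0.98 and 1.02. With libraries scaled by the median of ratios, Sdha no longer passed in either genotype (0.06 in WT and 0.04 in KO) nor Sdhb in KO (0.12).

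Complex III, which passes electrons from ubiquinol to cytochrome c, had the highest median, 1.00 in WT and 0.99 in KO, with 7 of 9 nuclear genes higher and 1 lower in each genotype. Cyc1, the heme-bearing cytochrome c1, stood at 27, 28.5 and 25.2 FPKM in WT and 26.1, 23.2 and 24.9 in KO at 1 h, and at 66.4, 73.8 and 60.4 and 65.8, 61.1 and 57.9 at 6 h. There was no overlap between the times and a change of 1.28 ± 0.08 in WT and 1.28 in KO (limma adjusted p = 5.5e-08 and 5.6e-08). Uqcrc2, a core subunit, changed by 1.00 ± 0.05 in WT and 0.99 in KO, and 19.7% of its length overlaps Pdzd9 on the other strand. The small subunits Uqcrq, Uqcr10 and Uqcr11 changed by 1.40, 1.22 and 1.11 in WT.

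Uqcrh, the acidic hinge subunit, was the most abundant nuclear member of complex III by FPKM and fell slightly. Its values were 276, 271 and 256 FPKM in WT and 255, 259.8 and 253 in KO at 1 h, and 228, 262 and 225 and 232, 241 and 223 at 6 h. The WT libraries overlapped between the times, through replicate 2 of 6 h. The change was -0.17 ± 0.06 in WT and -0.14 in KO (limma adjusted p = 0.0223 and 0.0464), and neither call held after quantile normalization or when a change of at least 1.2-fold was asked for. The call in WT was lost without WT 1 h replicate 1 or 2 and without WT 6 h replicate 1 or 3, and that in KO without any one of 8 libraries, which were WT 1 h replicate 1 or 2, WT 6 h replicate 1, the 3 of KO 1 h and KO 6 h replicate 1 or 3. Uqcrfs1, the Rieske iron-sulfur protein, changed by 0.07 in WT and did not pass.

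Complex IV, cytochrome c oxidase, had 13 tested nuclear genes, with Ndufa4 counted here and not in complex I. Of these, 9 were higher and 1 lower in each genotype, with medians of 0.57 and 0.55. Cox5a changed by 1.16 ± 0.08 in WT and 1.21 in KO, and 12.8% of its length overlaps Gm26631 on the other strand. Cox7b stood at 53.4, 54.7 and 52.5 FPKM in WT and 50.7, 47.9 and 51.3 in KO at 1 h, and at 105, 114 and 96.7 and 104, 96.5 and 96.4 at 6 h. The libraries of the 2 times did not overlap, with a change of 0.96 ± 0.06 in WT (limma adjusted p = 5.18e-08). Cox8a (0.07 in WT), Cox6a1 (0.04) and the weakly expressed Cox6b2 (-0.53) did not pass in either genotype.

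Cox7a2l, known as a factor that joins complexes III and IV into supercomplexes, had the deepest fall of all members. It stood at 223, 239 and 219 FPKM in WT and 213, 207 and 221 in KO at 1 h, and at 121, 133 and 112 and 120.3, 122 and 116 at 6 h. Every library of 6 h lay below every library of 1 h, and the genotypes overlapped at both times. The change was -0.89 ± 0.06 in WT and -0.83 ± 0.06 in KO (limma adjusted p = 1.42e-07 and 2.55e-07). Its paralog Cox7a2, the usual subunit of the enzyme in cells other than muscle, rose by 0.64 in WT and 0.54 in KO. At 1 h the level of Cox7a2l was 227 ± 10.9 FPKM (SD, n = 3) and that of Cox7a2 65 ± 2.25 in WT, and at 6 h 122 ± 10.7 and 102 ± 6.51. A stretch of 17.8% of Cox7a2l is shared with Gm6969 at an identity of at least 99%.

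Where complex IV has tissue isoforms, these cells expressed the widespread one. Cox4i1 stood at 205 ± 2.40 FPKM (SD, n = 3) in WT at 1 h, while Cox4i2, the isoform of lung and low oxygen, reached at most 0.133 FPKM in any library. The muscle isoforms Cox6a2 and Cox7a1 reached at most 1.05 and 0.492 FPKM, and Ndufa4l2, the low-oxygen paralog of Ndufa4, at most 0.247. Cox7b2, Cox8b and Cox8c were at 0 in all 12 libraries. Cox6b1 stood at 132 ± 5.71 FPKM and the testis isoform Cox6b2 at 2.76 ± 1.88 in WT at 1 h. With a second annotated Atp5o locus at 0, these are the 8 nuclear members below the mean of 1 FPKM, and the 2 mitochondrial ones are mt-Atp8 and mt-Nd4l.

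Complex V, the ATP synthase, had 17 tested nuclear genes, taken by their Atp5 symbols alone and with Atp5s among them. Of these, 16 were higher in each genotype and none lower, with medians of 0.76 and 0.74. Atp5b, the catalytic beta subunit, stood at 257, 246 and 233 FPKM in WT and 238, 209.7 and 228 in KO at 1 h, and at 493, 530.3 and 484 and 492, 488 and 460.2 at 6 h. All libraries of 6 h were above all of 1 h, and the change was 1.03 ± 0.06 in WT and 1.09 in KO (limma adjusted p = 3.85e-08 and 2.55e-08). Atp5g1, Atp5g2 and Atp5g3, which encode the same mature c subunit of the rotor ring, changed by 1.11, 0.88 and 0.82 in WT and by 1.06, 0.88 and 0.90 in KO. In WT at 6 h they stood at 18.1 ± 0.949, 169 ± 5.73 and 298 ± 20.6 FPKM (SD, n = 3), and Atp5g1 was scaled by a transcript of 4715 bases. Atp5o, the stalk subunit also called OSCP, changed by 0.98 in WT and 0.78 in KO. Up to 18.1% of its length overlaps a gene on the other strand, and 12.3% the second annotated Atp5o locus. Atp5l, a membrane subunit, changed by 0.08 in WT and was the gene of the complex that did not pass.

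These counts rest on the scaling to library size. When libraries were rescaled by the median of ratios over the tested genes, the median of all genes moved from 0.21 to -0.02 in WT and from 0.22 to -0.02 in KO. Under that scaling 63 members were higher and 16 lower in WT, against 38.7% and 39.1% of all genes, and 61 and 13 in KO, against 38.9% and 38.3%. Ndufv3, Cox4i1, Cox8a, Uqcrfs1, Atp5l, Ndufb10 and Cox6a1, all with small changes, took a negative sign in both genotypes, as did Ndufa6 in WT and mt-Atp6 in KO. The members named above as rising, other than Cox4i1 and Ndufv3, kept their sign under each scaling tried, and 72 of the 90 members in WT and 70 in KO lay above the median of all genes under the median of ratios.

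The mitochondrially encoded genes did not follow. Summed over the nuclear members, the level was 4847 to 5210 FPKM in the WT libraries of 1 h and 7260 to 8344 at 6 h, and 4584 to 4945 and 7050 to 7591 in KO. Summed over the 13 mitochondrial genes it was 27715 to 30363 FPKM in WT at 1 h and 20677 to 25338 at 6 h, and 26965 to 28053 and 23925 to 24985 in KO. Of the 13, 6 genes described below stood at 0 to 2.70 FPKM in 11 libraries and at most 20.9 in the remaining one. The sum and the ratio therefore rest on the 6 abundant genes and do not cover the whole mitochondrial genome. The ratio of the mitochondrial to the nuclear sum was 5.44 to 6.05 in the 6 libraries of 1 h and 2.48 to 3.49 in the 6 of 6 h. The times did not overlap in this ratio and the genotypes did at each time. The lowest ratio, 2.48, belonged to WT 6 h replicate 2, and the others of 6 h ran from 3.19 to 3.49.

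**Figure D3:**
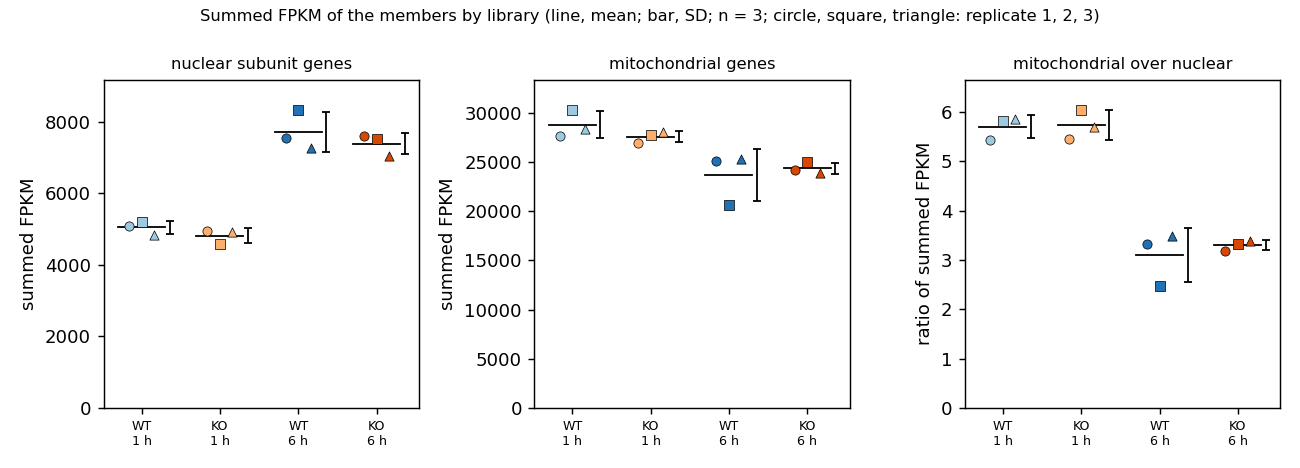
Summed FPKM of the nuclear members, of the mitochondrially encoded members and their ratio in each library (symbols by replicate number), with the group mean (line) and SD (bar) of 3 libraries. The mitochondrial sum rests on the 6 abundant genes. Nuclear sums are higher and mitochondrial sums lower at 6 h, and the ratio falls from 5.44 to 6.05 at 1 h to 2.48 to 3.49 at 6 h; the square of WT at 6 h is replicate 2.

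The 6 abundant mitochondrial genes stood between 1301 and 9279 FPKM. mt-Co1, the catalytic subunit of complex IV, had 9188, 9279 and 8972 FPKM in WT and 8922, 8729 and 8998 in KO at 1 h, and 7608, 6682 and 7374 and 7444, 7610.5 and 7408 at 6 h. All libraries of 6 h lay below all of 1 h. The change was -0.34 ± 0.07 in WT and -0.25 ± 0.07 in KO (limma adjusted p = 0.0011 and 0.00872), and -0.29 in WT without replicate 2 of 6 h (adjusted p = 0.0019). Both calls were lost when genes of low level were not filtered out and when a change of at least 1.2-fold was asked for.

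Among the mitochondrial genes of complex I, mt-Nd2 changed by -0.37 in WT and -0.24 in KO (limma adjusted p = 0.0064 and 0.0481), with a positive sign in both after quantile normalization (0.08 and 0.18). mt-Nd5 (-0.38, adjusted p = 0.0125), mt-Nd4 (-0.22, adjusted p = 0.0266) and mt-Cytb of complex III (-0.24, adjusted p = 0.0405) were lower in WT by limma. Without WT 6 h replicate 2 the changes in WT were -0.22, -0.13 and -0.12 for mt-Nd5, mt-Nd4 and mt-Cytb, and those of mt-Nd4 and mt-Cytb no longer passed (adjusted p = 0.0873 and 0.113). In KO, where mt-Nd5, mt-Nd4 and mt-Cytb changed by -0.17, -0.13 and -0.12, none of them passed. mt-Nd1 changed by -0.19 in WT and -0.12 in KO and did not pass in either. With the replicate block mt-Nd4 and mt-Cytb no longer passed in WT, nor mt-Nd2 in KO. After quantile normalization the changes of mt-Nd1, mt-Nd5 and mt-Cytb in KO were positive, at 0.12, 0.12 and 0.05.

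How many of the 6 abundant genes passed as lower depended on the scaling. With libraries rescaled by the median of ratios all 6 passed in both genotypes, with changes of -0.64 to -0.45 in WT and -0.53 to -0.40 in KO (limma adjusted p of at most 0.00125 and 0.00462). There mt-Nd1 changed by -0.45 and -0.40, and in KO mt-Nd5 by -0.45, mt-Nd4 by -0.40 and mt-Cytb by -0.40. After quantile normalization 2 passed in WT and 1 in KO, and without a filter on low values 0 passed in either. With 1 library left out 3 to 6 passed in WT and 1 to 3 in KO, where mt-Nd5 passed without WT 6 h replicate 2 (limma adjusted p = 0.0226).

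The other mitochondrial genes were low, and 1 library decided their values. mt-Co2, mt-Atp8, mt-Atp6, mt-Co3, mt-Nd3 and mt-Nd4l follow each other along the mitochondrial genome between mt-Co1 and mt-Nd4, and in 11 libraries they stood at 0 to 2.70 FPKM. In WT 6 h replicate 2 they stood at 3.06 to 20.9. mt-Co2, a subunit of complex IV that takes electrons from cytochrome c, had 0.640, 1.21 and 2.12 FPKM in WT and 1.55, 1.59 and 1.24 in KO at 1 h, and 1.56, 20.9 and 1.83 and 1.15, 2.03 and 1.06 at 6 h. The second of the WT libraries of 6 h is the high one, with 315 fragments of mt-Co2 against 9 to 30 in each other library, and the other groups overlapped. The change in WT, 1.27 ± 0.66, did not pass (limma adjusted p = 0.099) and was 0.26 without that library. mt-Co3 and mt-Nd3 changed by 0.84 and 0.27 in WT and by -0.06 and -0.24 without it, and mt-Atp6 by 1.04 and 0.13.

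**Figure D4:**
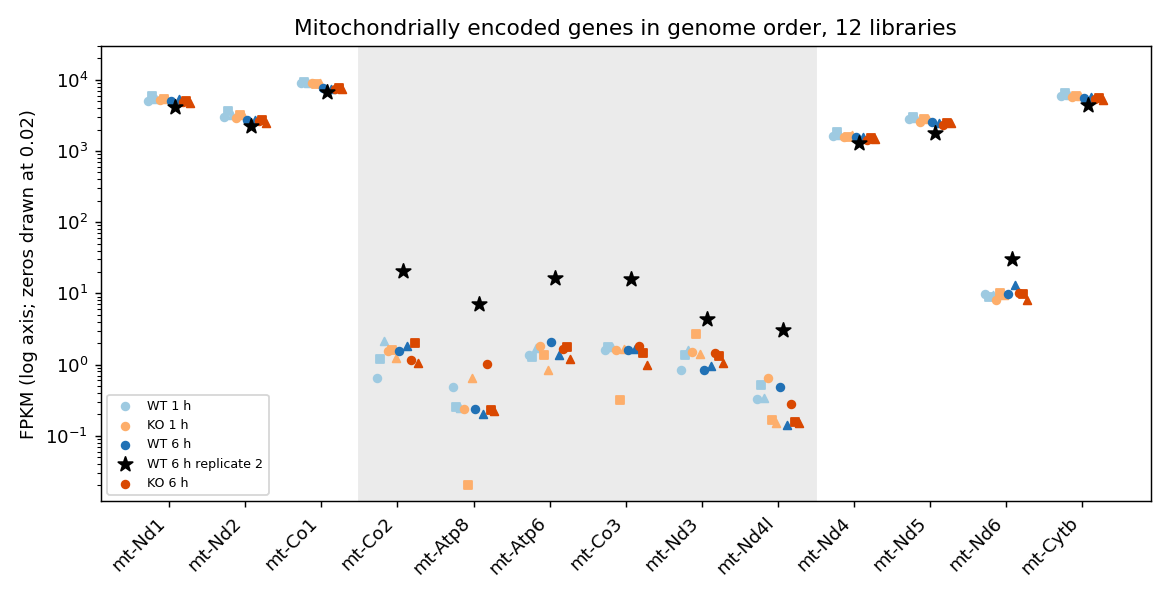
FPKM (log axis, zeros drawn at 0.02) of the 13 mitochondrially encoded protein genes in their order along the genome, in 12 libraries; the grey band covers the 6 neighbouring genes of low level and stars mark WT 6 h replicate 2. The 6 genes of the band lie at 0 to 2.70 FPKM in 11 libraries and at 3.06 to 20.9 in the starred one, while the abundant genes are lowest there.

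Each of these genes except mt-Atp8 has a near-identical copy among the annotated transcripts of chromosome 1. Genome sequence outside annotated transcripts was not searched, and matches under 100 bases were left out. Whether mt-Atp8 has a copy was therefore not tested. The annotation has 7 pseudogenes of mitochondrial genes at chr1:24611535-24616197 (mm10, minus strand), in the order of the mitochondrial genome. Gm28661, Gm10925, Gm28437, Gm28438 and Gm10222 match mt-Co2, mt-Atp6, mt-Co3, mt-Nd3 and mt-Nd4l over 99% to 99.9% of the gene's length at an identity of 99.71% to 100%. Gm28439 matches 63.6% of mt-Nd4 and Gm29216 31.3% of mt-Co1. The only base at which mt-Nd3 and its copy differ, T9461C (the mitochondrial base, its position on chrM, the base of the copy), lies at the start of the gene. It is in capitals in the first 23 bases of mt-Nd3, chrM:9459-9481 on the plus strand, and of Gm28438, chr1:24613097-24613119 on the minus strand, from the GENCODE transcripts.
mt-Nd3: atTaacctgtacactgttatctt
Gm28438: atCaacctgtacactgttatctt
Within these 23 bases a fragment can be told apart by that base alone, and mt-Co2, mt-Atp6, mt-Co3 and mt-Nd4l have none that differs from the copy in the stretch compared.

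The copies were low as well and high in the same library. Gm10925, the copy of mt-Atp6, stood at 75.5 FPKM in WT 6 h replicate 2 and at 5.90 to 12.5 in the other 11 libraries. Gm28661, the copy of mt-Co2, stood at 45 there and at 2.27 to 4.18 in the others. How the counting treated fragments that align equally well to both places is not given in the sources used here. The low values of the 5 genes with an annotated copy are therefore uncertain, and so is the part of mt-Nd4 and mt-Co1 that is shared. Those of mt-Atp8 are uncertain too. It lies between mt-Co2 and mt-Atp6, which both have a copy, and 21.1% of its length overlaps mt-Atp6.

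mt-Nd6, encoded on the other strand of the mitochondrial genome, has no such copy among the annotated transcripts and was also decided by that library. It stood at 9.66, 8.80 and 9.44 FPKM in WT and 8.17, 10.2 and 9.63 in KO at 1 h, and at 9.69, 30.5 and 13.2 and 10.3, 9.70 and 8.05 at 6 h. WT 6 h replicate 2 was the highest of all 12 and replicate 3 the next. The change in WT, 0.71 ± 0.30, passed narrowly (limma adjusted p = 0.0492). Without replicate 2 of WT 6 h it was 0.26 (adjusted p = 0.101), and in KO it was 0.00. In the same library the abundant mitochondrial genes were the lowest of all 12, with mt-Cytb at 4464 FPKM against 5279 to 6559 in the others.

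KO and WT were then compared at each time, the question of the series. At 1 h, 0 of the 90 members were higher in KO, against 0.0845% of all genes, and 0 lower, against 0.439% (limma, 0.524% of all genes in either direction). At 6 h, 0 were higher, against 0.135% of all genes, and 0 lower, against 0.0929% (0.228% in either direction). At an unadjusted p under 0.05 there were 3 of the 90 members at each time, against 11.3% of all genes at 1 h and 7.55% at 6 h, and voom on recovered fragments called 0 at each. At 1 h the differences ran from -0.39 to 0.34, with a median of -0.05, and 70 of 90 were negative, against 54.6% of all genes. Groups did not overlap for 15 members (16.7%), against 14.8% of all genes. At 6 h the median was again -0.05 and 74 of 90 were negative, against 49.3% of all genes, and 3 members (3.33%) did not overlap, against 15.1%.

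The lean toward negative signs moved with single libraries, in both directions. At 6 h the median was 0.00 with 45 of 90 members negative without WT replicate 2, and -0.10 with 80 negative without WT replicate 3, where 14 members rather than 3 were below an unadjusted p of 0.05 by limma. At 1 h, 58 were negative without WT replicate 2 and 55 without KO replicate 2, and 79 without WT replicate 3, with a median of -0.08 and 8 members below an unadjusted p of 0.05 by limma. No member passed after adjustment when any of these libraries was left out. The shares of all genes that were negative or below that unadjusted p in these fits were not computed. The shifts may therefore not be particular to the members. At 6 h the median of all genes was 0.001 without WT replicate 2 and 0.004 without WT replicate 3. At 1 h it was -0.005, -0.009 and -0.012 without WT replicate 2, KO replicate 2 and WT replicate 3. Without WT replicate 3, calls over all genes went from 62 to 142 at 1 h and stayed at 27 at 6 h. WT replicate 2 had the highest nuclear sum of its group at both times, and KO replicate 2 the lowest at 1 h. Libraries with the same number were more alike between the times within a genotype, though the animals are not named.

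**Figure D5:**
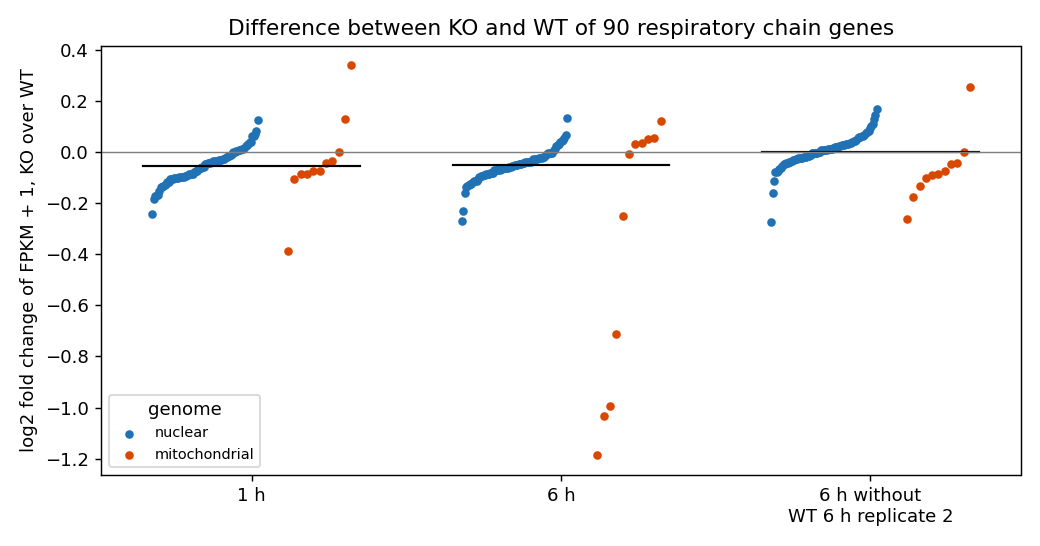
Log2 fold change of FPKM + 1, KO over WT, of the 90 tested members (points, nuclear and mitochondrial) at 1 h, at 6 h and at 6 h without WT 6 h replicate 2; black bars are medians over the 90 genes. No member passed in any of the 3; the medians are -0.05, -0.05 and 0.00, and the mitochondrial genes far below zero at 6 h are those of low level that were high in WT 6 h replicate 2.

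The members nearest to passing at 1 h were Ndufv3, Ndufs4 and Uqcr11. Ndufv3, an accessory subunit beside the NADH site, had 40, 40.3 and 38.2 FPKM in WT and 35.3, 34.6 and 36.5 in KO, without overlap. Its difference was -0.15 ± 0.06 (SE, limma adjusted p = 0.355). Ndufs4, an accessory subunit whose loss disturbs complex I assembly, had 17.6, 17.4 and 18.2 in WT and 16.3, 16.8 and 16.3 in KO, without overlap and with a difference of -0.10 ± 0.04 (limma adjusted p = 0.395). Uqcr11 had 28.9, 34.5 and 28.5 in WT and 25.3, 25.7 and 25.9 in KO, again without overlap, with a difference of -0.24 ± 0.10 (limma adjusted p = 0.408).

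At 6 h those nearest were Ndufa12 (-0.27 ± 0.09, limma adjusted p = 0.434), mt-Nd6 (-0.71 ± 0.30, adjusted p = 0.623) and Atp5o (-0.14 ± 0.06, adjusted p = 0.656). Ndufa12 was below WT in every KO library, as given above, and differed by -0.27 without WT 6 h replicate 2 as well. mt-Nd6 differed by -0.26 without that library. No member passed in the test of whether the change over time differed between the genotypes, against 0.0253% of all genes, and 3 of the 90 members were below an unadjusted p of 0.05, against 4.54% of all genes. These were Ndufa12 (-0.33 ± 0.13), Ndufs4 (0.14 ± 0.06) and Atp5o (-0.21 ± 0.09), all at a limma adjusted p of 1.

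Genes that build and supply the chain moved with the nuclear subunits over time. Of 43 tested assembly factors, 42 were higher at 6 h in WT and 40 in KO, with none lower and medians of 0.87 and 0.82. All counts of these lists stand against 49.5% of all genes higher and 29.2% lower in WT, and 50.6% and 27.9% in KO, and under the median of ratios against 38.7% and 39.1% in WT. Bcs1l, which inserts the Rieske protein into complex III, rose from 2.79 ± 0.45 to 10.8 ± 0.27 FPKM (SD, n = 3) in WT, a change of 1.65 ± 0.08 (limma adjusted p = 1.22e-08). Uqcc1 changed by 1.23, Coa3 by 1.22 and Coa5 by 1.16. Of 24 import genes 23 were higher in each genotype, with Tomm40, the channel of the outer membrane, at 1.91, Timm50 at 1.86, Tomm70a at 1.60 and Hspa9 at 1.33 in WT. Of 11 genes of the cristae, the folds that hold the chain, 10 were higher in each, among them Phb (2.31), Phb2 (1.57), Immt (1.36) and Samm50 (1.12). Under the median of ratios 39 of the assembly factors, 21 of the import genes and 10 of the cristae genes were higher in WT, and 1 cristae gene was lower.

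The factors that transcribe, copy and process mitochondrial DNA and RNA were higher in 27 of 30 cases in each genotype, and 1 was lower in WT, while the abundant mitochondrial messages were not higher. Lrpprc, which stabilises those messages, rose from 18.3 ± 0.33 to 56.4 ± 1.99 FPKM (SD, n = 3) in WT, a change of 1.57 ± 0.04 (limma adjusted p = 1.43e-10). Top1mt, the mitochondrial topoisomerase, changed by 2.41, Elac2, which trims mitochondrial tRNAs, by 1.39, and the elongation factor Tefm by 1.31. Under the median of ratios 25 of the 30 were higher and 3 were lower in WT.

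Of 12 nuclear regulators of respiratory genes, 9 were higher and 2 lower in WT, and 9 and 3 in KO. Myc fell from 559.7 ± 11.8 to 184.3 ± 11.2 FPKM (SD, n = 3) in WT, a change of -1.60 ± 0.07 (limma adjusted p = 5.36e-09). Pprc1, a coactivator of the PGC-1 family, rose by 1.17, Gabpa by 0.67 and Nrf1 by 0.57. Under the median of ratios 6 of the 12 were higher and 3 lower in WT, against 38.7% and 39.1% of all genes.

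Of 17 genes of the tricarboxylic acid cycle and pyruvate dehydrogenase, 16 were higher in each genotype and 1 lower in WT, with Dlat at 1.47, Suclg2 at 1.25, Idh3a at 0.83 and Cs, citrate synthase, at 0.81 in WT. With the median of ratios 14 of the 17 were higher and 1 lower in WT. Genes of cytochrome c, ubiquinone and heme synthesis were mixed, with 14 of 23 (60.9%) higher and 3 lower in WT and 15 and 2 in KO, against 49.5% and 29.2% of all genes in WT. Under the median of ratios 11 (47.8%) were higher and 4 lower in WT. Coq8a, needed for ubiquinone synthesis, fell from 52.6 ± 4.32 to 9.91 ± 0.34 FPKM (SD, n = 3), a change of -2.29, and Coq10b, a ubiquinone-binding protein, by 2.14 on the log2 scale. Coq2 and Coq4 of the same pathway rose by 0.96 and 1.39. Of 9 antioxidant genes of the mitochondrion 7 were higher in each genotype, with Prdx3 at 1.51, Txn2 at 1.49, Sod2 at 1.04 and Glrx2 at 1.01 in WT. With the median of ratios 6 of the 9 were higher and 2 lower in WT. No gene of these lists passed between KO and WT at either time.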

How the data were processed

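Poly-A RNA of 12 libraries of stimulated splenic B cells was measured, 3 for each genotype and time. The deposited values are FPKM, scaled by the authors by transcript length and library size. Per the submitters' processing notes reads were handled with STAR, HTSeq and the build mm10, whose versions are not listed. Gene length, annotation and the treatment of strand and of multiple alignments are not given in the sources used here. All 12 columns were used and 0 were left out.

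FPKM times transcript length gave whole fragments (tolerance 0.001) for 99.02% of the tested genes with an annotated length and for a further 0.96% with a solved one. These gave the depth of each library. Tests used limma 3.58.1 in R 4.3.3 on log2(FPKM + 1), two-sided, with a mean per group and a trend of the variance with the level. P-values were adjusted by Benjamini and Hochberg across the 11841 genes that averaged 1 FPKM or more, and an adjusted p under 0.05 made a call. Fold changes on this scale understate the change of low genes. The fit was checked on simulated data. Near-identical copies were sought among the annotated transcripts only, with blastn 2.17.0 (identity of at least 99%, length of at least 100 bases).

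Named were up to 10 called members in each direction with the smallest adjusted p, the 3 nearest to passing between genotypes, all mitochondrial genes, complex II, isoform sets and up to 4 genes of each list. Other members (Uqcrq, Uqcr10, Cox5a and those that did not pass over time) were named after their values were seen. The members and lists were chosen with earlier results of these data known.

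Whether replicate numbers pair libraries was read from their deviations from the group means. Between the times, pairs with the same number had correlations of 0.338 to 0.547 in WT, and pairs with different numbers of -0.368 to 0.017. In KO these were 0.365 to 0.476 and -0.279 to -0.132. Libraries with the same number were thus more alike between the times within a genotype. Deviations from a group mean cancel out, which pushes the other pairs toward negative values. Between the genotypes at 1 h, pairs with the same number had -0.15 to 0.248 and pairs with different numbers -0.302 to 0.346. The pairing was therefore read with that limit, and the animals are not named. Alternatives changed the pseudocount, filter, scaling, spread, block, fold and libraries. Voom on recovered fragments was added after seeing the data.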

Additional observations from a re-analysis of the deposited data

How the results depend on the processing

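In WT, 8 members were lower at 6 h; this count was 3 without a filter on low values, 16 with median-of-ratios scaling, 4 with quantile normalization, 4 with only the 6 libraries compared, 2 when a change of at least 1.2-fold was asked for, and 5 to 8 with 1 library left out. In KO, 5 were lower, and the count was 2 without a filter, 13 with median-of-ratios scaling, 3 with quantile normalization, 2 at 1.2-fold and 3 to 6 with 1 library left out; it was 3 without KO 1 h replicate 2 or 3, WT 6 h replicate 1, or KO 6 h replicate 1 or 3. The lowest in WT was reached without WT 1 h replicate 2. The cause was not tested. Over all genes the main fit called 9324 in WT, 62.9% of them higher. Without a filter it was 11614 (57.7% higher), with median-of-ratios scaling 9212 (49.7%) and with quantile normalization 9212 (54.9%). With only the 6 libraries compared it was 8940 (63.2%), and at 1.2-fold 6966 (64.8%). In KO it was 9292 (64.5%) in the main fit, 11253 (60.6%) without a filter and 9139 (50.4%) with median-of-ratios scaling. With quantile normalization it was 9077 (54.8%) there, and at 1.2-fold 6887 (66.8%). Counts of higher members ranged from 68 to 73 in WT and 69 to 71 in KO with 1 library left out, and no alternative called a member between the genotypes. With the replicate block, which pairs the times within a genotype, 69 were higher and 6 lower in WT and 70 and 4 in KO, with 0 between the genotypes; mt-Nd4 and mt-Cytb were lost in WT, mt-Nd2 in KO, and Cox8a was gained in KO.

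Over the 90 members and 25 alternatives 40 changes over time took the other sign in WT or KO, 16 of them with median-of-ratios scaling. Of 1792 values of the 33 members named by the rule, 89 lost and 14 gained the call, and 10 took the other sign where a call was involved or the shift was larger than the spread between replicates. Ndufv3 in WT was -0.14 with median-of-ratios scaling and -0.036 with quantile normalization, and -0.008 in KO with the former. With quantile normalization mt-Nd2 was 0.082 in WT and 0.178 in KO, mt-Cytb 0.051, mt-Nd1 0.119 and mt-Nd5 0.118 in KO. With 1 library left out mt-Co3 ranged in WT from -0.055 to 1.300 and mt-Nd3 from -0.236 to 0.548, both lowest without WT 6 h replicate 2. Depth limits the 6 low mitochondrial genes, with 0 to 5 fragments of mt-Atp8 in each library but WT 6 h replicate 2 (32 fragments).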

Other observations

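Outside the members, the ribosomal RNAs of the mitochondrion, mt-Rnr1 and mt-Rnr2, stood at 306.8 and 596.8 FPKM in WT 6 h replicate 2, within the ranges of the other 11 libraries (282.5 to 470.6 and 586.2 to 862.1). Gm29216, the chromosome 1 copy of part of mt-Co1, stood at 33.5 FPKM in that library and at 10.8 in WT 6 h replicate 1, against 1.02 to 2.55 in the remaining 10. The other 6 copies did not stand out in WT 6 h replicate 1, where Gm10925, for example, was at 6.21 FPKM.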
